A study of Homo sapiens with 11 samples.

Results

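The regions described here are distal intron sites enriched over input in each of 4 ZFP36L2 immunoprecipitates from 2 human acute myeloid leukaemia lines. They were chosen from measured values. A row of the deposited input table of MOLM13 replicate 1 was taken when its region was given as distal intron and when each of the other 3 input tables had a row that overlapped it by 1 base or more on that strand. This left 6029 of the 8627 distal intron rows, out of 14432 rows of all regions in that table and 67083 rows in the 4 tables. Of the other distal intron rows, 658 were in that table alone, 787 were found in 2 tables and 1153 in 3. Touching rows were merged, which gave 4458 sites in 2347 host genes. A log2 fold of at least 4 in every table, in place of 3, would have kept 3899 rows and 2719 sites.

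MOLM13 and THP1 are established lines of acute monocytic leukaemia, grown in culture with no treatment named in the labels. An anti-ZFP36L2 antibody was used for 2 immunoprecipitates per line, and control IgG for another 2. There were 2 inputs for MOLM13 and 1 for THP1, so that both THP1 folds over input may rest on the same input, which the labels do not state. Input is a small share of the crosslinked lysate set aside before immunoprecipitation and sequenced beside it. The labels do not state separate cultures for the duplicates, whose differences may be technical. Of 11 lineage markers looked for, CD68 and CD33 were named in an input table and none hosted a shared distal intron site, so the tables give no check of the lines by their markers.

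ZFP36L2 belongs to the TIS11 family of zinc finger proteins, which bind AU-rich elements and recruit deadenylases that start the decay of an mRNA. Its best known targets carry these elements in the 3' UTR, and in blood cells the family restrains inflammatory, cell cycle and survival mRNAs. Introns are present in RNA only before splicing, so a crosslink deep inside an intron marks contact with unspliced RNA or with an excised intron. Enhanced crosslinking and immunoprecipitation (eCLIP) freezes such contacts with ultraviolet light and maps them by sequencing the fragments that come down with the protein.

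A cluster is a stretch of piled-up reads that the authors called in 1 immunoprecipitate, and a row of an input table is a cluster whose log2 fold over input and −log10 p both reach 3. Rows of the input tables were 10.3% and 7.9% of the clusters listed for the MOLM13 replicates and 12.6% and 13.1% for THP1. The choice used these values, so the folds over input are a description. Per-row folds and p-values are the authors' own, and the sources used here do not give the read depth behind them. Folds that rest on few input or IgG reads were therefore not told apart from the rest. Library values are given below in the order MOLM13 replicate 1, MOLM13 replicate 2, THP1 replicate 1, THP1 replicate 2. Coordinates are on hg38 and 1-based.

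Over input, the shared distal intron rows had median log2 folds of 5.08, 4.93, 5.61 and 5.50. The lowest of a row's 4 folds had a median of 4.42 and reached 9.20 at most. At the lower edge, 176 rows had a lowest fold under 3.1. Just inside the threshold lay a row in COL23A1, a membrane collagen, with 3.27, 3.0, 4.11 and 3.47, and a row in B3GALNT2, a glycosyltransferase, with 4.14, 3.0, 4.94 and 6.08. Just outside lay the rows found in 3 tables. Their median log2 fold over input was 3.97 in MOLM13 replicate 1. In the library whose table lacked them a cluster was nonetheless listed at 98.9% of the 708 rows missing from MOLM13 replicate 2, at 85.8% of the 190 missing from THP1 replicate 1 and at 88.6% of the 255 missing from THP1 replicate 2.

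Control IgG gave a comparison that the choice of rows did not use, although the same immunoprecipitates enter it. The log2 fold over IgG of the shared distal intron rows had medians of 3.16, 2.42, 3.41 and 4.15, against 0.28, −0.60, 0.0019 and 0.38 for all clusters listed. Of the 6029 rows, 5975 (99.1%) stood above IgG in all 4 libraries. The other 54 were at or below it in MOLM13 replicate 2, and 1 of them also in MOLM13 replicate 1. No row was at or below IgG in all 4 libraries. The matching share of all clusters is not given. Rows of other classes were also seldom at or below IgG. In MOLM13 replicate 1 this held for 0.76% of the distal intron rows found in that table alone. For 3' UTR rows found in all 4 tables it was 0% to 0.19% per library. Standing above IgG was thus not particular to the shared distal intron rows.

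With the thresholds of the input tables, 3 for log2 fold and for −log10 p, 51.9%, 25.2%, 62.7% and 80.8% of the rows were enriched over IgG. Among all clusters the shares were 5.11%, 2.49%, 5.74% and 8.36%. All 4 libraries were past the thresholds at 938 rows, or 15.6% (Wilson 95% interval 14.7 to 16.5%, which covers counting error only). The background was 4.79% of the 48668 clusters of MOLM13 replicate 1 that overlap a cluster in every other list. Where several clusters of another list overlapped, the background took the highest over IgG, whereas the rows took the highest over input. Another 1616 rows passed in 3 libraries, 1783 in 2, 1138 in 1 and 554 in none. Rows short of the thresholds numbered 2899, 4509, 2247 and 1157 in the 4 libraries, the most in MOLM13 replicate 2. Of the 1616 rows that passed in 3 libraries, 1219 were short in MOLM13 replicate 2. Without that library 32.3% of the rows found in the other 3 tables passed in all 3, against 7.79% of clusters in those 3 lists. Without THP1 replicate 1 the share was 18.3% against 5.2%, and without THP1 replicate 2 it was 15.5% against 4.39%. At the same p, log2 fold thresholds of 2 and 1 over IgG gave 41.4% and 45.9% of rows in all 4 libraries, against 10.6% and 11.7% of clusters. With each library's folds centred on the median of its clusters, the threshold of 3 gave 20.3% of rows against 5.35% of clusters.

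**Figure D1:**
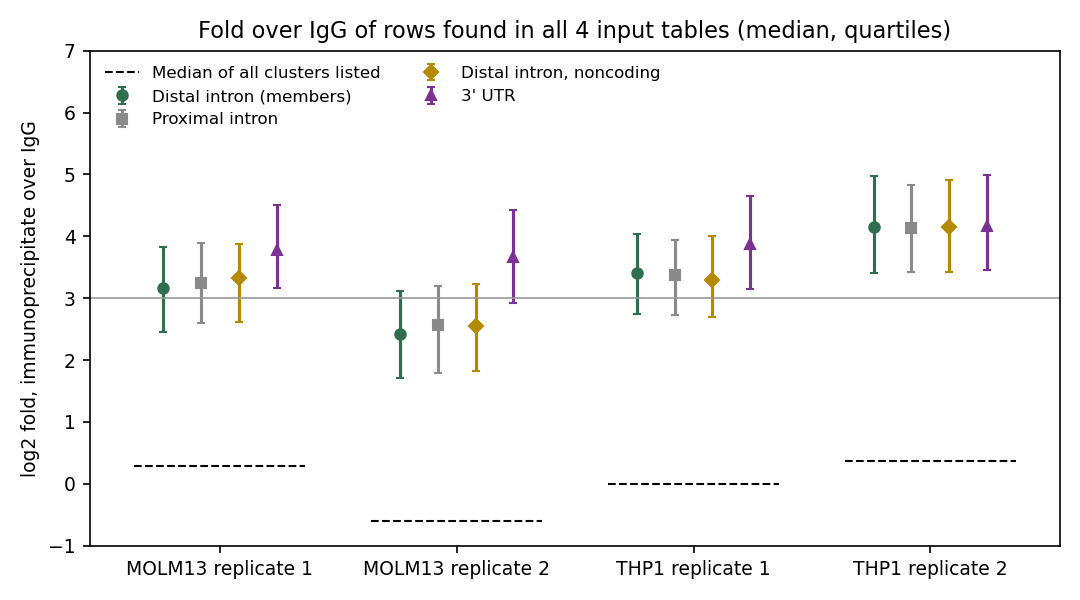
Median log2 fold over IgG (points) and quartiles (bars) in each immunoprecipitate for rows found in all 4 input tables, by region, with the median of all clusters listed as a dashed line and the threshold of 3 as a grey line. Distal intron medians lie between 2.42 and 4.15, below the 3' UTR medians by more in MOLM13 than in THP1.

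Rows in 3' UTRs that were found in all 4 tables by the same rule, 1567 in number, were past the IgG thresholds in all 4 libraries in 48.7% of cases (Wilson 46.2 to 51.2%). Their medians over IgG were 3.79, 3.66, 3.88 and 4.17, while over input they were lower than the distal intron rows, at 4.44, 4.67, 4.73 and 4.55. The 2 controls thus ordered the regions differently. Distal intron rows had the higher medians over input and 3' UTR rows the higher medians over IgG. In THP1 replicate 2 the medians over IgG were nearly the same, 4.15 and 4.17. The 685 proximal intron rows and the 466 distal intron rows of noncoding transcripts lay close to the coding distal introns, with 18.1% and 19.5% past IgG in all 4 libraries.

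The share past IgG was highest for rows held by all 4 tables and for rows with a high fold over input. In MOLM13 replicate 1, 4.26% of distal intron rows found in that table alone passed, 19.9% of those in 2 tables, 16% of those in 3 and 51.9% of the shared rows, with median folds over IgG of 2.23, 2.68, 2.49 and 3.16. Among the shared rows, 2.44% of those with a lowest log2 fold over input of 3 to 4 passed over IgG in all 4 libraries. This share was 9.07% at 4 to 5, 24.7% at 5 to 6, 45.5% at 6 to 7 and 60.2% at 7 or more. Both folds have the same immunoprecipitate in the numerator, and its part in this relation was not tested.

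**Figure D2:**
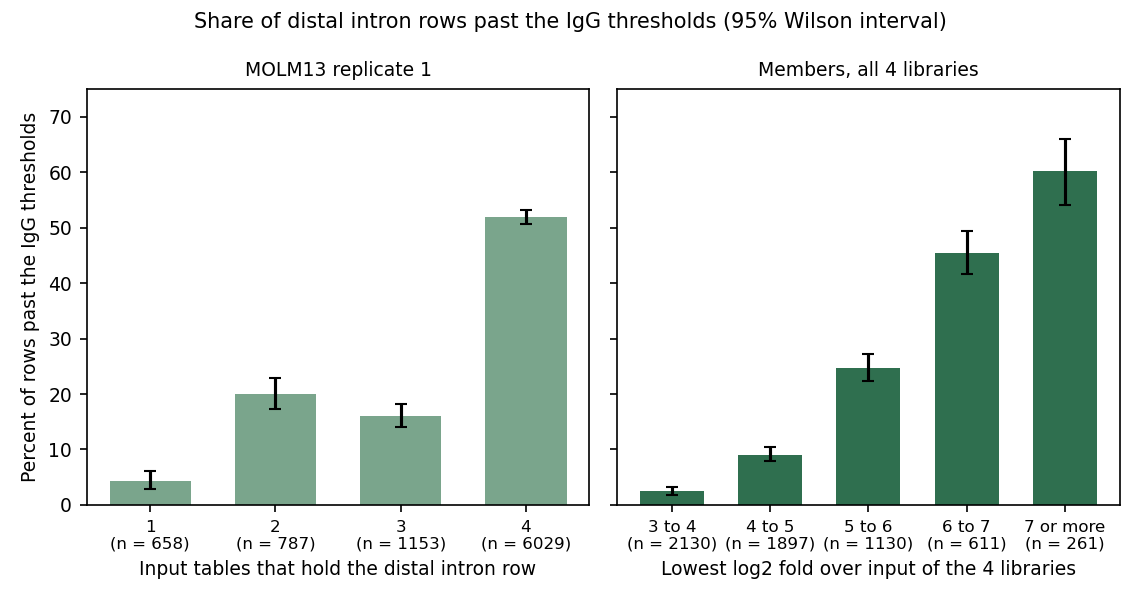
Percent of distal intron rows past the IgG thresholds, with 95% Wilson intervals for counting error, by the number of input tables that hold the row (left, MOLM13 replicate 1) and by the lowest of the 4 log2 folds over input (right, shared rows, all 4 libraries). The share rises from 2.44% to 60.2% across the right panel.

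The 10 host genes strongest over input were COPA, CSTF3, MTHFD1L, HOOK3, GRB2, PTK2B, RNF216, MAPK14, ATXN2 and MAPKAPK2. For each host gene the values are those of the row with the highest lowest-of-4 fold, over input or, for the genes named as strongest over IgG, over IgG, and the coordinates are those of its merged site. COPA, a subunit of the COPI vesicle coat, led with 9.60, 9.20, 9.51 and 10.08 over input at chr1:160300285-160300356. Over IgG the COPA site had 4.00, 2.69, 4.37 and 6.99, so that MOLM13 replicate 2 missed the threshold. CSTF3, a subunit of the cleavage factor that makes mRNA 3' ends, followed with 9.34, 9.01, 9.63 and 9.35 at chr11:33113138-33113221, and passed over IgG in all 4 libraries with 4.94, 3.88, 3.96 and 6.13. MTHFD1L, a mitochondrial enzyme of folate metabolism, had 9.67, 9.34, 8.75 and 9.03 over input, with 4.43, 3.66, 4.34 and 6.22 over IgG at chr6:150923556-150923625. Replicates of a line differed by less than 1 log2 unit over input at each of these 3 sites.

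Among signalling genes, the p38 kinase MAPK14 had 8.45, 9.14, 9.24 and 8.44 over input at chr6:36103335-36103404, and 4.83, 4.20, 5.41 and 5.74 over IgG. MAPKAPK2 encodes the kinase downstream of p38 that phosphorylates ZFP36, a relative of ZFP36L2. Its site at chr1:206706144-206706309 had 8.21, 9.21, 10.10 and 9.23 over input, with 4.81, 4.04, 4.95 and 6.42 over IgG. Both kinases of this pair were thus past the IgG thresholds in every library. MAP2K5, which activates the kinase ERK5, had 7.25, 7.67, 7.97 and 9.0 over input but missed over IgG in MOLM13 replicate 2, where its fold was 2.41.

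GRB2, the adaptor that links receptor tyrosine kinases to RAS, showed 8.60, 9.02, 8.58 and 9.68 over input at chr17:75328892-75328950. Its folds over IgG were 3.91, 2.85, 4.24 and 5.77, with the miss again in MOLM13 replicate 2. The tyrosine kinase PTK2B reached 8.89, 8.52, 9.27 and 9.56 over input, with 4.73, 4.70, 4.44 and 6.97 over IgG. PRKCB, protein kinase C beta, stood among the 10 strongest host genes over IgG with 4.78, 5.01, 5.85 and 4.58 at chr16:23899853-23899907. CDK6, a kinase of the G1 phase, had even values over input, 6.90, 7.06, 6.83 and 7.11, and uneven ones over IgG, 4.10, 2.05, 3.41 and 4.53. Another CDK6 intron site had 3.35, 4.31, 3.42 and 5.12 over IgG.

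Guanine nucleotide exchange factors of blood cells were represented by VAV1, DOCK2 and ARHGEF1. VAV1 had 7.57, 8.42, 6.91 and 8.66 over input, with 5.85, 6.06, 4.08 and 5.65 over IgG at chr19:6795476-6795582. At DOCK2, which activates RAC in leukocytes, the values were 9.42, 7.87, 7.34 and 7.87 over input, with 4.26, 3.82, 5.36 and 6.13 over IgG. ARHGEF1, an activator of RHOA, showed 8.08, 9.29, 8.89 and 7.92 over input, with 4.64, 3.62, 3.64 and 5.60 over IgG. All 3 sites were past IgG in every library, and the lines overlapped over input at VAV1 and ARHGEF1.

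Genes that act on RNA included the strongest site over IgG. PAN3 is the regulatory subunit of the PAN2-PAN3 deadenylase, which shortens poly(A) tails. Its site at chr13:28249113-28249227 had 6.07, 6.20, 5.74 and 6.05 over IgG and 7.58, 7.82, 10.16 and 7.86 over input. Another PAN3 site lay downstream in the gene at chr13:28250955-28251143, with 9.72, 8.47, 8.15 and 8.20 over input, with 5.74, 4.53, 4.91 and 5.03 over IgG. PAN3 held 7 shared sites in all. TNRC6B, a scaffold of microRNA silencing, had 3.64, 3.87, 4.02 and 5.53 over IgG, and UPF2, a factor of nonsense-mediated decay, had 3.90, 2.70, 4.29 and 5.64.

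RNA-binding proteins other than decay factors were also hosts. ATXN2, a regulator of mRNA stability and translation, had 9.82, 8.39, 8.41 and 8.53 over input at chr12:111588126-111588198, and 3.93, 3.52, 4.92 and 6.72 over IgG. CELF2, which binds GU-rich RNA and regulates splicing, had 7.32, 6.62, 6.17 and 5.98 over input, with 5.75, 5.26, 4.92 and 4.98 over IgG at chr10:11180855-11180934. Both MOLM13 libraries were above both THP1 libraries at the CELF2 site on either scale. For the splicing regulator PTBP3 the folds over IgG were 4.02, 4.29, 5.53 and 5.05, and for MBNL1 they were 4.07, 3.43, 3.29 and 4.45. PTBP3 and MBNL1 were past the IgG thresholds in every library.

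The chromatin genes and transcription factors given here are the hosts strongest over input in their lists, together with ZFPM1, which was among the 10 strongest over IgG. MLLT10, a fusion partner of KMT2A in leukaemia, showed 7.30, 7.57, 8.49 and 9.11 over input, with 3.90, 2.57, 3.66 and 5.11 over IgG at chr10:21712212-21712305. At the sites given for KMT2E and KMT2C, relatives of KMT2A, both THP1 libraries were past IgG and neither MOLM13 library was. The folds over IgG were 2.77, 2.44, 3.32 and 4.98 for KMT2E and 2.70, 1.79, 3.32 and 4.22 for KMT2C. KMT2C held 5 shared sites, of which 1 was past IgG in all 4 libraries. RUNX2 had 4.26, 2.65, 3.80 and 5.20 over IgG. ELF1, an ETS factor of blood cells, had 3.76, 3.56, 3.56 and 5.84, and PBX3, a cofactor of HOXA9, had 3.46, 3.98, 3.50 and 3.59. ZFPM1, a cofactor of GATA1, was the highest of these over IgG, with 4.63, 5.33, 4.53 and 5.08 at chr16:88502099-88502230. ELF1, PBX3 and ZFPM1 were thus past IgG in every library, while the sites given for MLLT10 and RUNX2 missed in MOLM13 replicate 2. Of the 7 shared sites of MLLT10, 1 was past IgG in all 4 libraries.

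MYCBP2 and RNF216 were among the strongest host genes by 1 of the measures, and TRIP12, HERC4 and UBE2W were the strongest over input in the list of ubiquitin genes. MYCBP2, a large ubiquitin ligase, ranked next after PAN3 over IgG with 5.62, 5.12, 5.29 and 5.28 at chr13:77301923-77302028. RNF216, another ligase, had 9.0, 8.60, 8.49 and 8.58 over input, with 3.63, 2.99, 3.15 and 5.58 over IgG, just short of the threshold in MOLM13 replicate 2. TRIP12 had 2.93, 3.08, 4.78 and 6.28 over IgG, and both of its THP1 values were above both MOLM13 values. HERC4 showed 4.32, 3.22, 5.52 and 5.51, and the conjugating enzyme UBE2W 4.65, 4.24, 3.67 and 5.09. HOOK3, an adaptor that couples cargo to dynein, was the one host gene among the 10 strongest by both measures, with 9.13, 8.71, 9.12 and 8.92 over input, with 4.75, 5.55, 5.56 and 5.11 over IgG at chr8:42934067-42934201.

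The rest of the 10 strongest over IgG had other roles. The enzyme WWOX had 6.04, 5.22, 4.56 and 5.64 over IgG at chr16:78524418-78524488, and IMMP1L, a mitochondrial inner membrane peptidase, had 4.80, 4.62, 4.94 and 6.44. LINS1 had 5.44, 5.02, 5.11 and 5.31 over IgG and folds over input close to these, 5.84, 5.05, 5.77 and 5.32. ATP6V0C, the proton-conducting subunit of the vacuolar ATPase, was listed jointly with AC093525.2 and had 5.03, 5.78, 5.51 and 5.58 over IgG at chr16:2520032-2520042, with 5.82, 5.67, 5.75 and 5.39 over input. This site ended 176 bases before the 3' end of ATP6V0C in the RefSeq annotation of GRCh38.p14. The deposited table nonetheless places it in a distal intron, and the joint name leaves the gene undecided. Over IgG, the strongest 3' UTR site of that joint name had 4.89, 5.69, 5.51 and 5.58, the THP1 values being the same. A gene strand was not known for every gene, and among host genes it was known for 1887. Inside a same-strand gene of known strand lay 3689 of the 4458 sites, and the other 769 could not be assessed. Of the 3689 sites, 22 (0.596%) ended within 2000 bases of the 3' end of such a gene, and 3 of the 22 were past IgG in all 4 libraries, 2 of these in ATP6V0C.

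**Figure D3:**
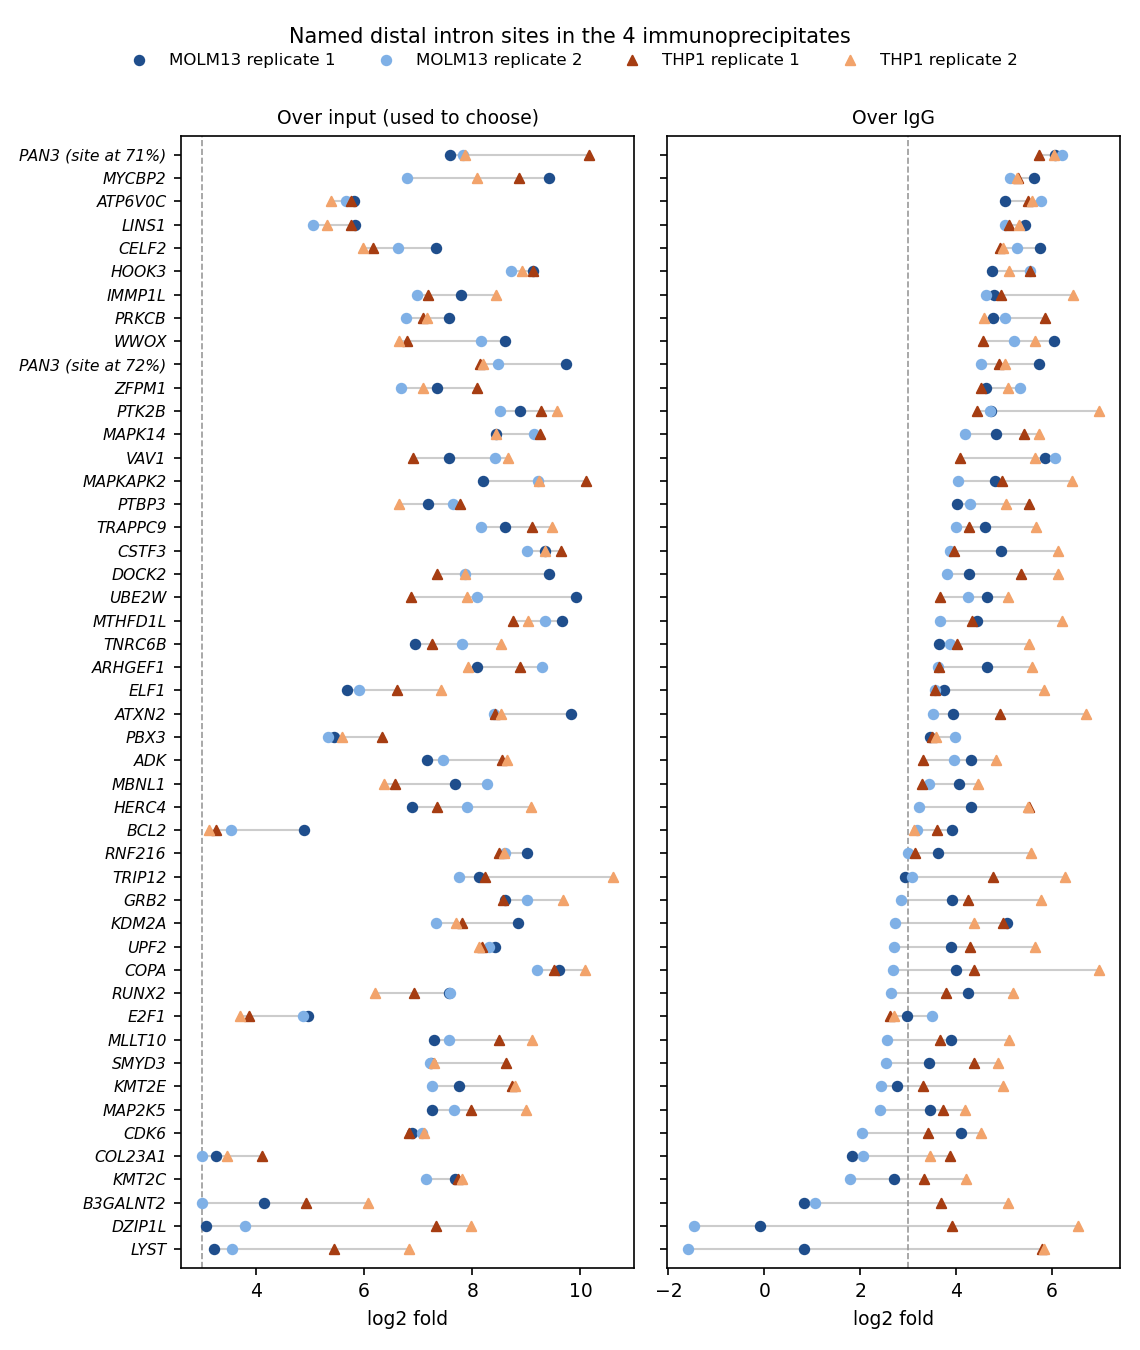
Log2 fold over input (left, the values that chose the rows) and over IgG (right) of the named distal intron sites in the 4 immunoprecipitates, ordered by the lowest of the 4 folds over IgG, with the threshold of 3 as a dashed line. PAN3 leads over IgG with all 4 libraries between 5.74 and 6.20, and LYST is lowest with values from −1.60 to 5.83.

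Reported targets of the ZFP36 family were seldom hosts. Of 27 such genes named in any input table, 3 (11.1%) held a shared distal intron site, against 34.9% of all 6728 named genes. These targets are short genes, with a median length of 6114 bases against 49788 for all named genes. Of all named genes under 20000 bases, 9.70% were hosts, which is near the share of the targets. E2F1, a transcription factor of the cell cycle, had 4.97, 4.86, 3.88 and 3.70 over input, with 2.98, 3.51, 2.63 and 2.70 over IgG. At the site of the survival gene BCL2 the values were 4.89, 3.54, 3.27 and 3.13 over input, with 3.91, 3.18, 3.61 and 3.13 over IgG, and its −log10 p over IgG stayed under 3 in MOLM13 replicate 2 and THP1 replicate 2, at 2.47 and 2.16. Neither site was past the IgG thresholds in all 4 libraries.

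E2F1 and BCL2 each also had a 3' UTR row found in all 4 tables. The strongest 3' UTR site of BCL2 over IgG had 4.12, 4.12, 5.41 and 5.95, above its intron site in every library. In E2F1 the order differed between libraries. VAV1 was the reverse case, with 4.20, 5.62, 4.06 and 4.78 in the 3' UTR and a higher intron value in every library.

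Across the 314 host genes with both kinds of site, the 3' UTR site was the higher over IgG in all 4 libraries in 88 genes and the intron site in 37. In the other 189 the order differed between libraries or values tied. The lowest of the 4 folds had a median of 2.51 for the intron site and 2.99 for the 3' UTR site. The 314 genes were 13.4% of the host genes, and 15.7% of the 4381 other named genes had a 3' UTR row in all 4 tables. Of the 3602 genes with any row found in all 4 tables, 1002 (27.8%) had such a 3' UTR row, which is itself a way into that set. With a log2 fold of at least 4 in every table the share of host genes was 4.67%, and no share of other genes at that threshold is given. Seen from the other side, 31.3% of the genes with a shared 3' UTR row were hosts, which is near the 34.9% of all named genes.

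Host genes were long. Their median length was 84546 bases (quartiles 44213 and 149698), and that of the other named genes was 36316 bases. Of the genes under 20000 bases, 9.70% were hosts. The share was 30.2% from 20000 to 50000 bases, 44.9% from 50000 to 100000, 55.1% from 100000 to 200000 and 57.2% above that. The gene lists are read against this gradient. Of 36 leukaemia chromatin and fusion partner genes named in the tables, 30 (83.3%) were hosts with 104 sites, 13 of them (12.5%) past IgG in all 4 libraries against 14.1% of all sites, and the median length of these genes was 118631 bases. They included the histone methyltransferase genes NSD1, NSD2, EZH2 and DOT1L and the acetyltransferase genes CREBBP and EP300.

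Among mRNA decay factors, 22 of 34 (64.7%) were hosts, among them CNOT1, the scaffold of the CCR4-NOT deadenylase that the TIS11 family recruits. AU-rich and other RNA binders counted 18 hosts of 24 (75%), including HNRNPD, which also binds AU-rich elements. The shares were 72.5% of 40 ubiquitin genes, 72.1% of 43 kinases, 56.0% of 25 exchange factors and GTPase-activating genes, and 34.6% of 26 myeloid transcription factors. The 9 hosts among these factors included RUNX1, ETV6 and ZEB2. Median lengths ran from 69046 bases for the myeloid factors to 191116 for the exchange factors. All lists except the reported targets had median lengths above the 49788 bases of all named genes, and the part of length in these shares was not tested beyond the gradient given above.

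Most host genes, 1347, had 1 site, while 521 had 2, 325 had 3 or 4 and 154 had 5 or more. The last group held 989 sites, or 22.2% of all. The median density was 1.92 sites per 100000 bases. KDM2A, a histone demethylase, had the most sites, 14 in 138820 bases, or 10.1 per 100000 bases. None of the 14 was past IgG in all 4 libraries, although their highest lowest-of-4 fold over input was 7.33. ADK, which encodes adenosine kinase, had 11 sites, of which 3 were past IgG in every library, at chr10:74182375-74182444, chr10:74335256-74335345 and chr10:74547493-74547554. SMYD3, a lysine methyltransferase, had 11 sites with 1 past IgG in every library.

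VAV1 had 11 sites in 84654 bases, 13.0 per 100000, and 2 of them were past IgG in all libraries. Within chr19:6795456-6796097 it had 4 sites, whose lowest folds over IgG were 1.43, 4.08, 1.55 and 2.26. In this group only the site at 6795476 was past IgG in every library. The sites at 6795456 and 6795476 had the same THP1 replicate 2 folds, 8.66 over input and 5.65 over IgG. They did not touch and so were counted separately. TRAPPC9, a subunit of a vesicle tethering complex, LRMDA and the ESCRT-I gene UBAP1 had 10 sites each, as did SGK3, SFMBT2 and NSD1. SFMBT2 and NSD1 had no site past IgG in all 4 libraries. UBAP1 was the densest of these, with 13.6 sites per 100000 bases and 2 sites past IgG in all 4 libraries. Neighbouring sites of a gene lay a median of 12586 bases apart, with 8.53% of the 2111 gaps under 100 bases and 24.0% under 1000 bases.

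**Figure D4:**
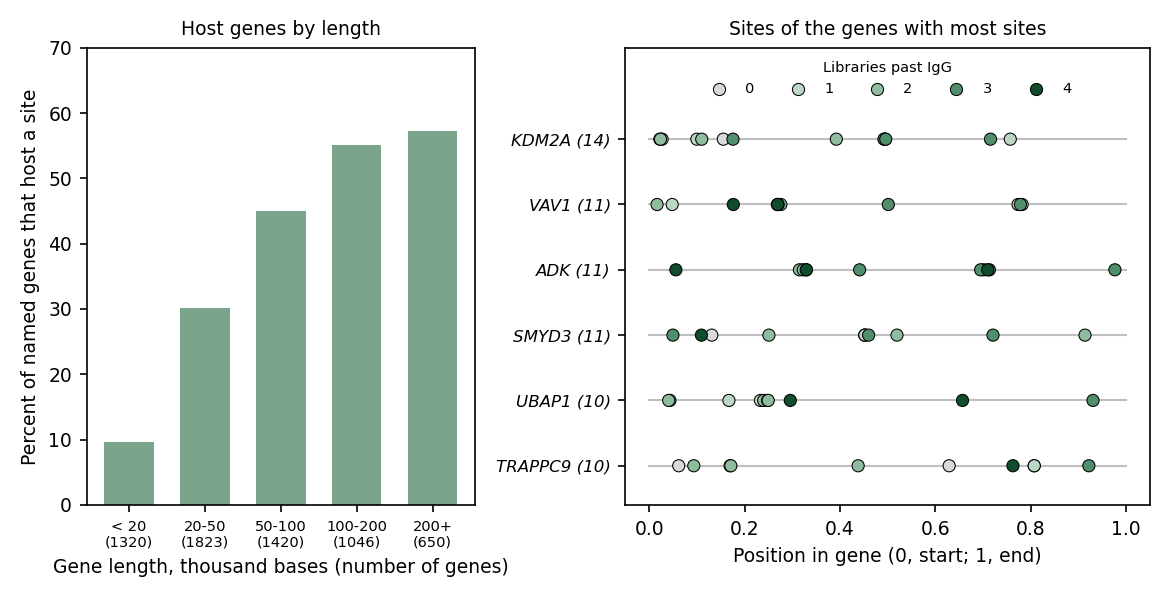
Percent of named genes that host a shared distal intron site by gene length (left, bars, number of genes in brackets), and sites along 6 of the genes named for many sites (right, each point 1 site, darker for more libraries past the IgG thresholds, number of sites in brackets). The share of hosts rises from 9.70% to 57.2%, and KDM2A has 14 sites, none of them past IgG in all 4 libraries.

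By site rather than row, 630 of 4458 (14.1%) were past IgG in all 4 libraries, in 537 host genes. The share was 13.0% in genes with 1 site, 14.8% in genes with 2 to 4 and 14.4% in genes with 5 or more, so sites in genes with many passed about as often as lone sites. Sites were narrow, with a median width of 78 bases (quartiles 67 and 97.8, widest 380), and 3267 consisted of 1 row. They were split evenly by strand, 2291 on the plus and 2167 on the minus strand.

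Overlap between the 4 tables was part of the choice, so the distance between their ends is a description. The 5' ends of the overlapping rows spread over a median of 20 bases, and at 12.6% of sites they lay within 5 bases of each other, while 6 sites had identical 5' ends. Taking the overlapping row with the nearest 5' end gave a median of 12 bases. The 3' ends spread over a median of 18 bases. For 1147 shared 3' UTR sites the medians were 24 bases at the 5' end and 20 at the 3' end. The region given by the other tables is a description for the same reason, and 98.9%, 99.0% and 99.0% of the overlapping rows were listed as distal intron in MOLM13 replicate 2 and the THP1 replicates.

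Of the sites, 4290 (96.2%) could be placed in the RefSeq span of their host gene on GRCh38. In 5 equal parts of the gene, from start to end, the shares were 26.9%, 25%, 20.7%, 17.2% and 10.2%. Distal intron sites of MOLM13 replicate 1 that were not shared had much the same profile, 26.4%, 26.0%, 19.8%, 16.7% and 11.2%. Clusters of any region in the same genes fell off less towards the end, with 22.9%, 20.3%, 17.9%, 16% and 22.9%, and the last of these includes 3' UTR clusters. The median shared site lay 34151 bases from the start of its gene.

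Replicates differed in level. The MOLM13 replicate 2 fold over IgG was lower than that of replicate 1 by a median of 0.71 (given as −0.71, SD of the difference 1.05), and THP1 replicate 2 was above replicate 1 by 0.83 (SD 1.10). Over input the medians of these differences were −0.18 and −0.06, with SDs of 0.93 and 0.92. The medians of all clusters over IgG shifted the same way, from 0.28 to −0.60 in MOLM13 and from 0.0019 to 0.38 in THP1. Centred on these, the medians of the rows over IgG were 2.87, 3.02, 3.41 and 3.77. Across the 4458 sites the folds over IgG of the replicates of a line had a Pearson r of 0.46 in both lines, and libraries of different lines had 0.20 to 0.29. These values describe sites that share genes and libraries, and no p was computed for them.

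More of the shared distal intron rows had their higher folds over IgG in THP1 than in MOLM13. Each library's folds were first centred on the median of all its clusters, since these medians differed. Both THP1 values were then above both MOLM13 values at 2530 rows (42.0%) and below both at 497 (8.24%), while the lines overlapped at 3002 (49.8%). Among all 48668 clusters present in the 4 lists the shares were 23.2% above and 22.9% below. Here too, overlapping clusters of the other lists were picked by their fold over IgG, unlike the rows. With 2 libraries per line an exact permutation test cannot give a two-sided p below 0.333. No model was fitted across the sites, so differences between lines at single sites are given without a test.

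The median difference, THP1 mean minus MOLM13 mean, was 0.67 for the rows (quartiles −0.03 and 1.33) and −0.0079 for all clusters. Over input it was 0.47. Shared 3' UTR rows, selected by the same rule, did not have this tilt, with 18.2% above and 19% below, and proximal intron rows did, with 36.6% and 11.2%. Among the 938 distal intron rows past IgG in all 4 libraries the shares were 27.6% and 11%. With rows counted from THP1 replicate 1 in place of MOLM13 replicate 1 they were 43.6% and 7.91%. Without centring they were 48.3% and 3.95%, and for all clusters 31.3% and 15.3%. Leaving out a library loosens the rule for rows and background alike. The shares above and below were 53.7% and 21.3% without MOLM13 replicate 1 (clusters 31.2% and 44.9%), 60.2% and 15.1% without MOLM13 replicate 2 (43.9% and 30.2%), 63.1% and 14.3% without THP1 replicate 1 (35.2% and 35.6%), and 50.7% and 22.0% without THP1 replicate 2 (35.5% and 34.7%). The part of unspliced RNA levels or of the IgG libraries in the difference between lines was not tested.

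**Figure D5:**
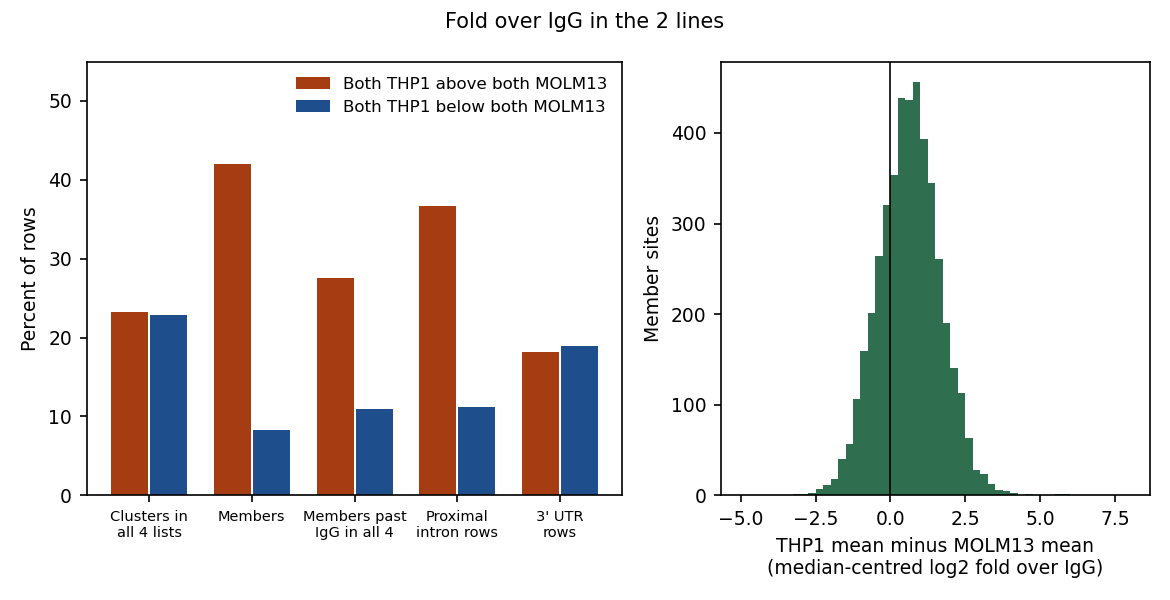
Percent of rows at which both THP1 libraries were above or below both MOLM13 libraries in median-centred log2 fold over IgG, for all clusters in 4 lists, shared distal intron rows and comparison sets (left, bars), and the distribution of the THP1 mean minus the MOLM13 mean over the 4458 sites (right, number of sites per 0.25 log2 units). Distal intron rows lean to THP1, 42.0% against 8.24%, while 3' UTR rows do not, 18.2% against 19%.

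The sites with the largest differences between lines were picked after their values were seen. LYST, a regulator of lysosomal traffic, had 0.83, −1.60, 5.79 and 5.83 over IgG and 3.23, 3.56, 5.45 and 6.83 over input at chr1:235839660-235839771. DZIP1L, a zinc finger protein of the primary cilium, had −0.08, −1.46, 3.92 and 6.55 over IgG and 3.08, 3.80, 7.33 and 7.97 over input at chr3:138090081-138090144. These were the rows with the lowest single folds over IgG among the 6029, and at both the signal over IgG lay in THP1. PDE4D, a cyclic AMP phosphodiesterase, had 0.41, −0.64, 4.18 and 5.35, PRRC2C had 1.44, 0.79, 5.52 and 5.72, and the transcription factor ONECUT2 had 0.96, 0.94, 6.03 and 4.78. One of the UBAP1 sites, chr9:34182125-34182254, had 1.22, 0.44, 3.33 and 7.14, so its THP1 replicates were far apart.

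Fewer sites leaned to MOLM13, and by less. Another WWOX site, at chr16:78705647-78705767, had 5.42, 4.90, 2.55 and 2.42 over IgG, while the WWOX site named above had at least 4.56 in every library. FARS2, a mitochondrial tRNA synthetase, had 4.91, 4.40, 2.11 and 2.08, and the adhesion receptor ADGRL2 had 4.85, 3.22, 1.43 and 2.02. The transcription factor TFCP2 had 4.09, 3.14, 1.18 and 1.60. At these 4 sites the MOLM13 values exceeded 3 in both replicates and the THP1 values stayed below 3. This did not hold for every site so picked. A site listed jointly under AC010522.1 and ZNF587B had 4.98, 2.56, 1.68 and 1.55. The row of B3GALNT2 at the input threshold leaned the other way, with 0.84, 1.06, 3.69 and 5.08 over IgG.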

How the data were processed

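ZFP36L2 eCLIP immunoprecipitates of MOLM13 and THP1 were analysed from the authors' deposited comparisons. Tools listed in the submitters' processing notes are STAR 2.5.0c, cutadapt 1.14, edgeR and Picard 2.6.0, with hg38, hg19 and GRCh37 as builds. Not given in the sources used here are the peak caller, the test behind p, the scaling of the fold, the depth and the distance that makes an intron position distal. Per the file headers, the 4 deposited input tables hold −log10 p-values (capped at 400) and log2 fold changes of clusters called per immunoprecipitate, and every row had values of at least 3 in both. The authors' IgG lists give the same −log10 p and log2 fold values for every cluster.

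Overlaps of at least 1 base, merging and lookups were computed in Python 3.11.15 (pandas 2.3.3, scipy 1.17.1). Overlaps and merging were tested on simulated intervals, and the IgG lookup was not. Where several rows of an input table overlapped a member row, the highest over input was used. For the clusters present in all lists, the overlapping cluster of another list was the highest over IgG. IgG values were those of the identical cluster, or of an overlapping one. Gene lengths and positions come from RefSeq, GRCh38.p14, and 96.5% of host genes matched. Sequences of the sites were not analysed here, and 1 host gene of the named-gene rule is not reported here.

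Members and the 8 gene lists were chosen with earlier results of these data known. Named genes were the 10 strongest by the lowest of 4 folds over input and over IgG, the 5 with most sites, up to 3 per list, and the 2 rows lowest over input and over IgG. UBAP1, LRMDA, SGK3, SFMBT2, the further hosts named per list and the sites that differ most between lines were added after seeing values. Alternatives were stricter folds, other overlaps, each library left out, other IgG thresholds and centring.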

Additional observations from a re-analysis of the deposited data

Results flagged for a closer look

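The DZIP1L site stood out because its folds over IgG lay on opposite sides of 0 in the 2 lines. Both MOLM13 libraries were below IgG, with log2 folds of −0.08 and −1.46, and both THP1 libraries above it, with 3.92 and 6.55. The THP1 mean exceeded the MOLM13 mean by 6.01, as deposited. The difference was not tested. Over input the site passed in every library, with 3.08, 3.80, 7.33 and 7.97.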

How the results depend on the processing

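No paired analysis was possible because the results are shares and medians of the authors' folds and come from no test across libraries. The motif alternatives (TATTTAT and shorter or longer forms, in several windows) were not run, since no genome was used here. A log2 fold of at least 4 in every table gave 3899 rows, 2719 sites, 22.7% past IgG in all 4 libraries and 4.67% of host genes with a 3' UTR row. Shares of other genes or clusters at that threshold are not given. The share past IgG was 14.3% with rows of THP1 replicate 1, 41.4% and 45.9% at IgG folds of 2 and 1, and 20.3% with centred folds. Leaving out 1 library gave 15.5% to 32.3%, with 6219 to 6737 rows, 4614 to 5123 sites and 2381 to 2541 host genes. Centring brought the MOLM13 replicate 2 median over IgG to 3.02, and the nearest 5' end gave a spread of 12 bases. The following were chosen after seeing the data. Rows with THP1 above MOLM13 were 48.3% as deposited, 43.6% by rows of THP1 replicate 1 and 50.7% to 63.1% with 1 library left out, and rows below were 3.95% as deposited and 14.3% to 22.0% with 1 library left out. Using the overlapping row that shares most bases gave 15.0% past IgG. The causes of these shifts were not tested. Host genes stayed within 1.5 times the count given in all 9 alternatives run. Depth is unknown.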
